A study of Sus scrofa with 2 samples.

Results

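The heat-shock chaperones described here in single nuclei of the pig pancreas were HSP70.2, HSPA6, HSPA8, DNAJB1, HSPH1, HSP90AB1, HSPD1 and HSPB8, which are 8 of the 31908 genes in the matrix, chosen by symbol and followed through every cell class of both libraries. The libraries came from 1 wild-type (WT) Bama pig and 1 transgenic PIGinH11 Bama pig. The PIGinH11 line has GIPRdn, hIAPP and PNPLA3I148M knocked in at the H11 locus under promoters for beta cells or liver. Both animals were 18 months old and had eaten a control diet until 6 months of age, and then for 12 months a high-fat, high-sucrose diet (HFHSD) of 37% sucrose, 53% control diet and 10% lard. Nuclei were released from a frozen piece of pancreas, so the counts are of transcripts in the nucleus and of any free RNA, in shares not measured. With 1 library per group, the genotype, the pig and the library cannot be told apart, no test between pigs was possible, and every interval given below is a 95% interval that covers counting error only.

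Heat-shock chaperones bind proteins that are unfolded or not yet folded. The HSP70 proteins hold exposed stretches of a client in a cycle driven by ATP, J-domain proteins deliver the client and trigger ATP hydrolysis, and nucleotide exchange factors release it. HSP90 takes over late steps for many signalling proteins, chaperonins enclose clients in a chamber, and small heat-shock proteins hold them without ATP. Some members are made at all times and others are switched on within minutes by heat-shock factor 1 during heat or other stress. Pancreatic acinar cells, which make digestive enzymes at a high rate, depend heavily on protein folding.

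After quality limits and doublet removal, 11854 WT and 13126 PIGinH11 nuclei were retained, with a median of 3016.5 and 1167 unique molecular identifiers (UMIs, counted transcripts) per nucleus. Of the cell barcodes, 60 occurred in both libraries and 47 of these were retained in both. Digestive enzyme transcripts made up 8.80% of WT and 4.67% of PIGinH11 UMIs, and the enzyme PRSS2 was found in every class, at 17429 CPM (UMIs scaled to a class total of 1e+06) in WT ductal-like and 1760 CPM in PIGinH11 ductal-like nuclei, and free acinar RNA in the droplets can give such counts. Classes were named from marker genes with none of the members among the genes used for clustering. All 6 clusters of the acinar-like class had 8 of 8 acinar markers. The acinar-like class held 8441 WT and 9085 PIGinH11 nuclei, the ductal-like class 2151 and 2185, and the endothelial-like class 279 and 554.

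HSP70.2, the stress-inducible cytosolic HSP70, had the largest fold difference of the measured members between the libraries in acinar-like, ductal-like and endothelial-like nuclei, and was lower in PIGinH11. In acinar-like nuclei it had 25442 UMIs in WT (842 CPM) and 169 in PIGinH11 (10.9 CPM). Ductal-like nuclei had 572 UMIs (66.5 CPM) and 12 UMIs (3.62 CPM). Endothelial-like nuclei had 490 UMIs (444 CPM) and 49 UMIs (39.1 CPM). The WT level was the higher of the pair in each of the 12 named classes, but not all had enough UMIs to compare. Under the minimum of 20 UMIs were Schwann-like (15 and 3 UMIs in WT and PIGinH11), delta-like (7 and 2), lymphocyte-like (6 and 1) and gamma-like nuclei (2 and 0). In the small classes the PIGinH11 counts were between 0 and 10 UMIs, with 98 and 1 UMIs in stellate-like, 35 and 1 in mural-like, 39 and 1 in beta-like, 20 and 1 in alpha-like, and 24 and 10 in macrophage-like nuclei of WT and PIGinH11. The gene lies on chr7:23925929-23927854 (Sscrofa11.1, RefSeq gene table), a span of 1926 bp inside the span annotated for HSPA1L, and it was matched by its Ensembl identifier ENSSSCG00000029160 because the matrix gives it no symbol. Reads of such closely related HSP70 copies can be split between them in counting, so the level of HSP70.2 is uncertain to that extent.

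Among the WT classes with at least 20 nuclei, HSP70.2 was highest in acinar-like nuclei, followed by endothelial-like, mural-like (267 CPM) and macrophage-like nuclei (259 CPM), and the intervals of the last 2 overlapped. Stellate-like nuclei had 134 CPM, Schwann-like 103 CPM and lymphocyte-like 94.1 CPM. Lowest were delta-like (81.7 CPM), alpha-like (69.9 CPM), ductal-like and beta-like nuclei (62.9 CPM), whose intervals also overlapped. A different order held in PIGinH11, where macrophage-like nuclei were highest, at 106 CPM, but all 10 of their UMIs came from 1 of 45 nuclei. Endothelial-like nuclei came next, and their 39.1 CPM, from 5.05% of 554 nuclei, were above the 10.9 CPM of acinar-like nuclei with intervals that did not overlap. The upper 1% of these nuclei held 49.0% of their 49 UMIs, and 2 nuclei had at least 5, so the value rests on few nuclei and the interval, which takes UMIs as independent, is too narrow.

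**Figure D1:**
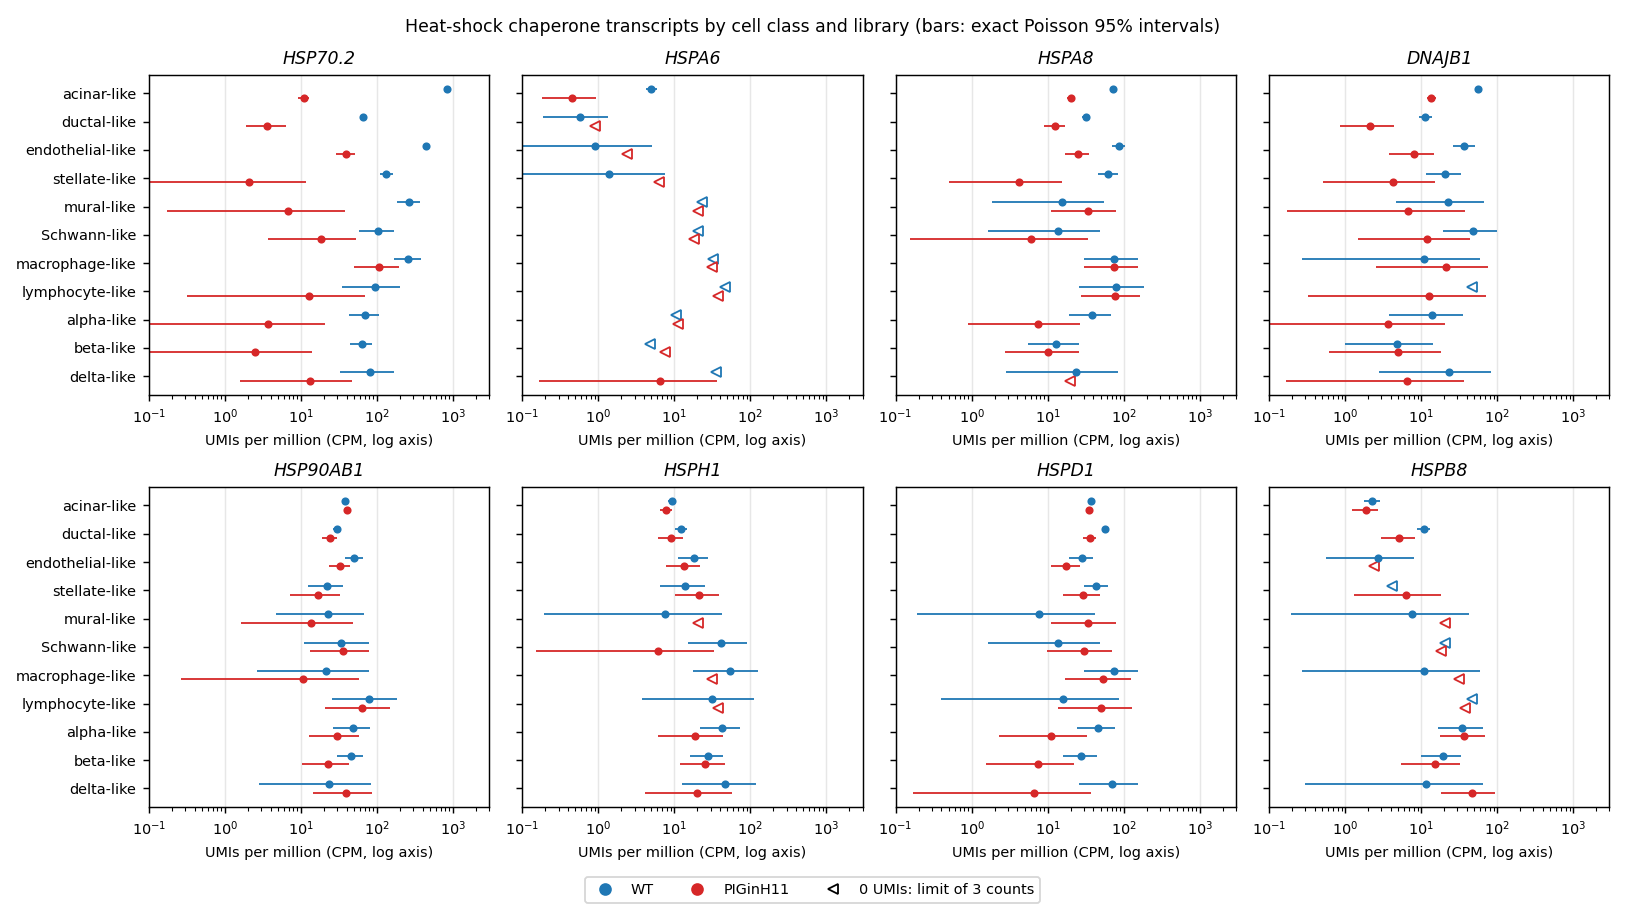
Level of each member (CPM, log axis) by cell class in WT (blue) and PIGinH11 (red), with exact Poisson 95% intervals, some of which run past the left edge; open triangles mark classes with 0 UMIs at the limit that a count of 0 allows. HSP70.2 is at 842 CPM in WT and 10.9 CPM in PIGinH11 acinar-like nuclei, while HSP90AB1 is at 38.4 and 40.3 CPM.

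Since free RNA can carry HSP70.2 and enzyme transcripts into all droplets, the UMIs of HSP70.2 were also set against the enzyme UMIs of the same nuclei. In WT, acinar-like nuclei had 9.74 [9.62, 9.86] HSP70.2 UMIs per 1000 enzyme UMIs. Endothelial-like nuclei had 10.7 [9.78, 11.7]. Ductal-like nuclei had 2.02 [1.86, 2.19]. The values of the alpha-like (2.14), beta-like (2.16), lymphocyte-like (1.87), delta-like (2.11) and Schwann-like (2.34) nuclei were close to the ductal-like one. Between these and the acinar-like value lay macrophage-like (5.97 [3.82, 8.88]), mural-like (4.44 [3.09, 6.17]), unnamed endocrine (3.59 [2.38, 5.19]) and stellate-like nuclei (2.90 [2.36, 3.54]), with intervals above the ductal-like one, on 24, 35, 28 and 98 HSP70.2 UMIs. Endothelial-like nuclei had the highest value, and its interval overlapped with the acinar-like one but with none of the others given here. The upper 10% of nuclei held 49.2% of WT endothelial-like and 47.1% of WT acinar-like HSP70.2 UMIs. These intervals, which take UMIs as independent, are thus too narrow. In acinar-like nuclei the enzyme UMIs also include the cells' own transcripts, so the endothelial-like and acinar-like ratios differ in kind. In PIGinH11 the ratio was 0.180 in acinar-like nuclei, 0.372 in ductal-like, 3.49 [2.58, 4.61] in endothelial-like and 15.7 [7.53, 28.9] in macrophage-like nuclei, where the 1 nucleus set the value. The unnamed class (354 WT nuclei, of which 352 were in 1 cluster rich in enzyme RNA) had 0.144, the lowest WT value among those compared.

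**Figure D2:**
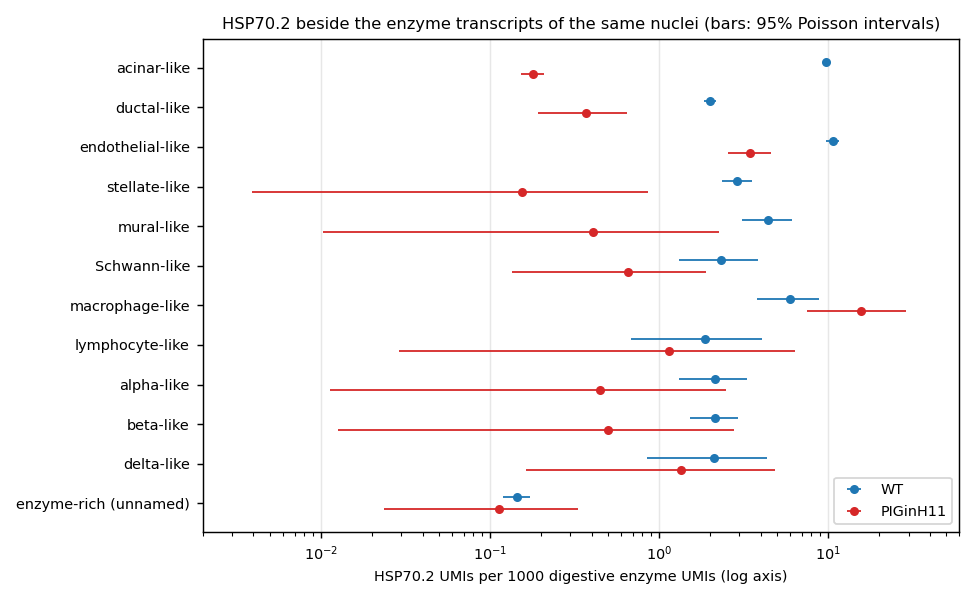
HSP70.2 UMIs per 1000 digestive enzyme UMIs (log axis) by cell class in WT (blue) and PIGinH11 (red), with Poisson 95% intervals. The WT acinar-like and endothelial-like points, at 9.74 and 10.7, sit to the right of the WT ductal-like and endocrine-like points near 2.02, and the highest PIGinH11 points are macrophage-like nuclei (1 nucleus with 10 UMIs) and endothelial-like nuclei.

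In acinar-like nuclei, the HSP70 members and their J-domain partner were lower in PIGinH11, and the other members were close to equal. HSP70.2 was 77.4-fold lower, with a log2 ratio of PIGinH11 over WT of -6.27 [-6.50, -6.06]. This was the lowest of the 19124 genes with at least 20 UMIs. Genes at 0 UMIs in a library were ranked at a floor of 3 counts, which gives only a bound for them. HSPA6, another strictly inducible HSP70, had 151 UMIs in WT, from 91 nuclei, and 7 in PIGinH11, a log2 ratio of -3.47 [-4.81, -2.39]. HSPA8, the constitutive HSC70, had 72.4 and 20.1 CPM (2187 and 312 UMIs), a 3.60-fold lower level and a log2 ratio of -1.85 [-2.03, -1.68]. DNAJB1, the inducible J-domain partner of HSP70, had 55.3 and 13.6 CPM (1672 and 212 UMIs), a 4.06-fold lower level and a log2 ratio of -2.02 [-2.23, -1.81]. These were 4 of the 8 members at least 2-fold lower and 0 at least 2-fold higher, whereas 2.96% of all genes in the class were at least 2-fold lower and 21.6% at least 2-fold higher. The median log2 ratio of all genes in the class was 0.29. Lower levels were not particular to chaperones, as PRSS2 had 35494 CPM in WT and 6379 CPM in PIGinH11. Mitochondrial transcripts made up 0.144% and 0.0545% of acinar-like UMIs, and ribosomal protein transcripts 0.551% and 0.341%. Over the alternative settings of the processing, the log2 ratio ran from -6.50 to -5.24 for HSP70.2 and from -4.01 to -1.59 for HSPA6. For HSPA8 it ran from -2.08 to -0.91 and for DNAJB1 from -2.25 to -1.11, so the counting intervals are narrower than the spread over settings.

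The other 4 members differed little between the libraries in the same nuclei. HSP90AB1, the constitutive HSP90, had 38.4 CPM in WT and 40.3 CPM in PIGinH11, a log2 ratio of 0.07 [-0.07, 0.21]. HSPD1, the mitochondrial chaperonin HSP60, had 37.4 and 35.1 CPM (-0.09 [-0.24, 0.06]). HSPH1, an HSP110 nucleotide exchange factor for HSP70, had 9.40 and 7.85 CPM (-0.26 [-0.58, 0.05]). HSPB8, a small heat-shock protein that works with BAG3, had 2.25 and 1.87 CPM from 68 and 29 UMIs (-0.27 [-0.95, 0.38]). None of these 4 intervals reached a 2-fold difference. Subtraction of the lowest level per nucleus among the other classes, as free RNA, moved HSP90AB1 to a log2 ratio of 0.81 and HSPD1 to 0.69, so that their near equality rests on the levels without subtraction.

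The members that were lower also have the shortest genes. HSP70.2, HSPA6 (chr4:88970592-88973109, 2518 bp), DNAJB1 (chr2:64761672-64764482, 2811 bp) and HSPA8 (chr9:49982278-49986760, 4483 bp) span under 5000 bp. HSPD1 (chr15:101360355-101373498, 13144 bp), HSP90AB1 (chr7:39237299-39250479, 13181 bp), HSPB8 (chr14:33626125-33639824, 13700 bp) and HSPH1 (chr11:7733874-7759528, 25655 bp) span over 10000 bp. Of all acinar-like genes under 5000 bp, 9.25% were at least 2-fold lower, against 1.68% of those of at least 10000 bp. In ductal-like nuclei these shares were 13% and 1.87%, and in endothelial-like nuclei 21.7% and 2.57%. The part of gene span in the members' ratios was not tested.

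The lower level ran through the acinar-like clusters. HSP70.2 was between 499 CPM (cluster 8) and 1217 CPM (cluster 2) in the 6 WT clusters and between 6.75 and 15.8 CPM in PIGinH11, so that the ranges did not overlap. DNAJB1 (32.9 to 82.4 CPM) and HSPA8 (44.7 to 101 CPM) were also highest in cluster 2 among the WT clusters. Without cluster 2 the log2 ratios were -6.08 for HSP70.2, -1.49 for HSPA8 and -1.64 for DNAJB1, and 4 members were still at least 2-fold lower.

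**Figure D3:**
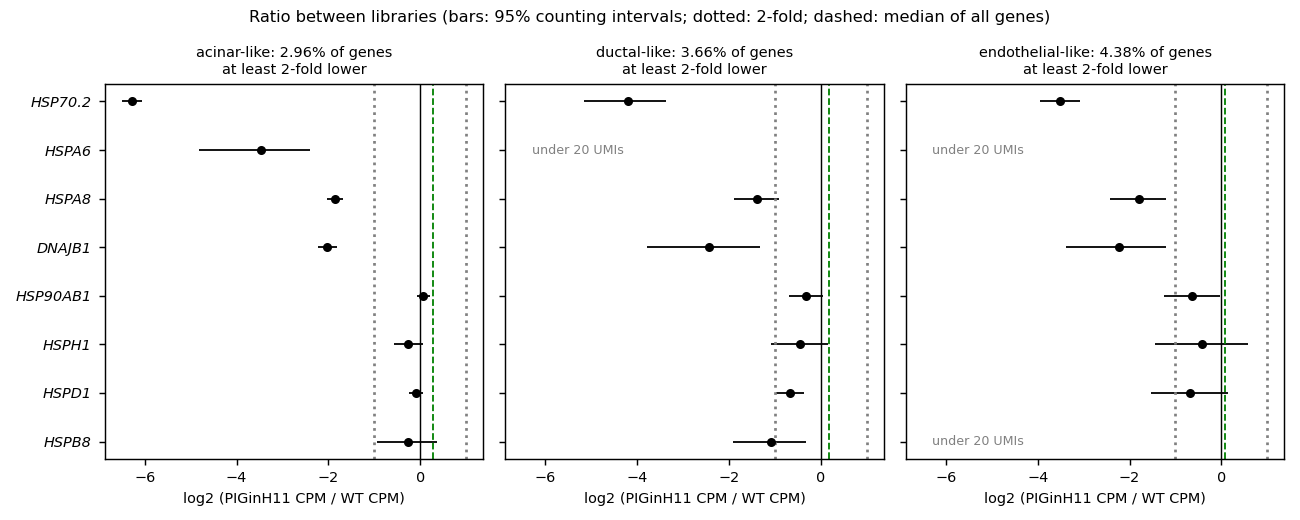
Log2 ratio of PIGinH11 over WT CPM for each member in acinar-like, ductal-like and endothelial-like nuclei, with 95% counting intervals; dotted lines mark 2-fold, the dashed line the median of all genes. HSP70.2, HSPA8 and DNAJB1 lie left of the 2-fold line in all 3 classes, and in acinar-like nuclei HSP90AB1 and HSPD1 lie next to 0.

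In ductal-like nuclei HSP70.2 had a log2 ratio of -4.20 [-5.16, -3.38]. DNAJB1 had 98 and 7 UMIs in WT and PIGinH11, a log2 ratio of -2.43 [-3.78, -1.33]. HSPA8 had 32.3 and 12.4 CPM, a log2 ratio of -1.39 [-1.90, -0.91]. HSPB8 joined them here, with 10.8 and 5.13 CPM (93 and 17 UMIs) and a log2 ratio of -1.08 [-1.91, -0.32]. Thus 4 of 7 measured members were at least 2-fold lower, beside 3.66% of all genes in the class. HSPD1 had 56.4 and 35.6 CPM (-0.66 [-0.97, -0.37]), HSP90AB1 a log2 ratio of -0.31 and HSPH1 one of -0.44, and HSPA6 had only 5 and 0 UMIs. PRSS2, which these nuclei should lack, was also far lower in PIGinH11. After the lowest level per nucleus among the other classes of at least 50 nuclei was subtracted as free RNA, no HSP70.2 was left in WT ductal-like nuclei (0.266 UMIs per nucleus, against 0.278 in alpha-like nuclei) and 1 of 5 measured members, HSPB8, was at least 2-fold lower. This subtraction leaves no HSP70.2 by design in the class with the lowest level per nucleus. How much of that level is free RNA was not measured. A lower HSP70.2 level in ductal cells themselves was therefore not shown.

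In endothelial-like nuclei HSP70.2, HSPA8 and DNAJB1 were at least 2-fold lower. HSP70.2 had a log2 ratio of -3.51 [-3.96, -3.08]. HSPA8 had 86.1 and 24.7 CPM (95 and 31 UMIs), a log2 ratio of -1.80 [-2.44, -1.20]. DNAJB1 had 37.2 and 7.97 CPM (41 and 10 UMIs), a log2 ratio of -2.22 [-3.38, -1.20]. In this class 3 of 6 measured members were at least 2-fold lower, beside 4.38% of all genes. PRSS2, which these nuclei should also lack, had 21547 CPM in WT and 1648 CPM in PIGinH11. Per 1000 enzyme UMIs, HSPA8 had 2.08 in WT and 2.21 in PIGinH11, and DNAJB1 had 0.896 and 0.711. Neither was 2-fold lower on that measure, while HSP70.2 had 10.7 and 3.49. However, enzyme transcripts were 4.15% of WT and 1.12% of PIGinH11 endothelial-like UMIs, so a gene at equal CPM would be higher on it. The measure therefore cannot decide whether HSPA8 and DNAJB1 were lower in endothelial cells themselves. HSP90AB1 had a log2 ratio of -0.63 [-1.25, -0.03], HSPD1 of -0.68 (0.27 after the same subtraction) and HSPH1 of -0.42, and HSPA6 and HSPB8 had too few UMIs to compare. Stellate-like nuclei had HSP70.2 and HSPA8 (46 and 2 UMIs) as 2 of 5 measured members at least 2-fold lower, beside 5.64% of genes, and beta-like nuclei HSP70.2, HSPD1 (17 and 3 UMIs) and HSP90AB1 (28 and 9 UMIs, with a log2 interval from -2.27 to 0.12) as 3 of 4, beside 5.94%. The WT beta-like HSP70.2 level, 0.305 UMIs per nucleus, was near the ductal-like one, so that a lower level in beta cells themselves was likewise not shown. Macrophage-like nuclei had the smallest HSP70.2 difference that could be measured here, with a log2 ratio of -1.29 [-2.52, -0.18] that rested on the 1 nucleus above.

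The levels of HSPB8, HSP90AB1 and HSPD1 over the classes had another order than those of HSP70.2. HSPB8 was higher in alpha-like nuclei (35.0 CPM in WT, 37.2 CPM in PIGinH11, 10 UMIs each) and beta-like nuclei (19.4 and 15.0 CPM) than in acinar-like nuclei of either library. HSP90AB1 was highest in the unnamed class, nearly all of it the enzyme-rich cluster, at 141 and 168 CPM. HSPD1 in WT was higher in ductal-like (56.4 CPM) than in acinar-like nuclei. Over 24 class and library points, the Pearson r with HSP70.2 on the log2 CPM scale (offset of 5 CPM) was 0.68 for HSPA8, 0.67 for DNAJB1, 0.22 for HSPH1, 0.14 for HSP90AB1, 0.10 for HSPD1 and -0.23 for HSPB8. HSPA6, with few or no UMIs outside WT acinar-like nuclei, had 0.25. Nearest to HSP70.2 among 13263 genes were TPT1 (0.86), RPLP1 (0.85), CELA2A (0.84), MT1X (0.84) and RPL10 (0.83), which encode a translationally controlled protein, a ribosomal protein, an acinar protease, a metallothionein and another ribosomal protein. In acinar-like nuclei all 5 were lower in PIGinH11 than in WT. TPT1 had 514 CPM in WT and 153 CPM in PIGinH11, RPLP1 334 and 114, CELA2A 2852 and 861, MT1X 1614 and 329, and RPL10 236 and 148. The points share a library in sets of 12, with its depth and free RNA, so the r values only describe likeness.

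Within the WT acinar-like class HSP70.2 was uneven from nucleus to nucleus. A UMI of it was found in 63.6% [62.6, 64.7] of nuclei, and in 1.60% of PIGinH11 nuclei. With each nucleus thinned to 500 UMIs the shares were 26.3% and 0.484%. The WT median was 1 UMI, the 90th percentile 9 and the highest 38, and 36.4% of nuclei had 0, where an even level at their depths would leave 15.9% at 0. The upper 10% of nuclei held 47.1% of the HSP70.2 UMIs. In WT ductal-like nuclei, by contrast, 77.9% had 0 and an even level would give 77.7%. WT endothelial-like nuclei had a UMI in 55.9% of nuclei, and 44.1% at 0 against 23.4% for an even level.

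Nuclei with more HSP70.2 also had more DNAJB1, HSPA8 and HSPA6. Among WT acinar-like nuclei with 0, 1, 2 to 4 and at least 5 HSP70.2 UMIs (3069, 1607, 1868 and 1897 nuclei), DNAJB1 had 21.4, 26.5, 47.0 and 91.4 CPM. HSPA8 had 36.1, 47.5, 65.6 and 107 CPM. HSPA6 had 1.20, 1.99, 1.37 and 10.6 CPM. HSP90AB1 stayed between 36.9 and 40.8 CPM. Because deeper nuclei hold more of everything (median UMIs of 1647 at 0 and 5917 at 5 or more), the level at 5 or more was divided by that at 0 after matching depth. That ratio was 4.69 for HSPA6 (lower bound 2.31), 3.14 [2.64, 3.77] for DNAJB1 and 2.30 [2.00, 2.64] for HSPA8, which ranked 2, 8 and 36 of 11708 genes. The 151 HSPA6 UMIs of this class came from 91 nuclei, so its interval, which takes UMIs as independent, is too narrow. HSPH1 had 1.66 [1.16, 2.42], HSPD1 1.19 [1.01, 1.40] and HSP90AB1 0.969. At least 2-fold higher were 3 of 6 members with enough UMIs, beside 0.512% of all genes. Mitochondrial transcripts fell from 0.214% to 0.0882% and enzyme transcripts from 10.5% to 7.32% over the same nuclei, and their part in these ratios was not tested. Depth was matched but cluster was not. Among the WT acinar-like clusters, cluster 2 had the highest levels of HSP70.2, DNAJB1, HSPA8 and also HSPA6 (8.70 CPM). The part of the clusters in these ratios was not tested either.

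**Figure D4:**
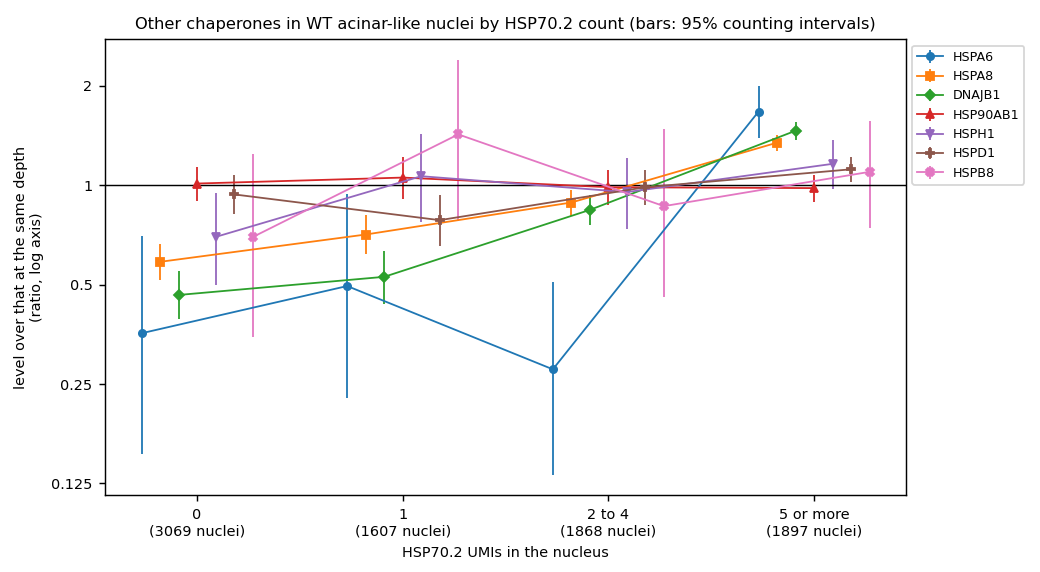
Level of the 7 other members relative to the level at the same depth (ratio, log axis) in WT acinar-like nuclei grouped by HSP70.2 count, with 95% counting intervals. DNAJB1 and HSPA8 lie below 1 at 0 HSP70.2 UMIs and above 1 at 5 or more, HSPA6 is above 1 in the last group, and HSP90AB1 stays near 1.

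Of 11 immediate-early genes with enough UMIs, 5 were also at least 2-fold higher in nuclei with at least 5 HSP70.2 UMIs, beside 0.512% of all genes. The median ratio of the 11 was 1.92, and the other 6 lay between 0.822 and 1.92. Of the genes in the pathway lists, HSPA1L (4.92), ATF3 (4.58), EGR1 (4.48), FOS (3.88), DUSP1 (3.02), HSPB1 (3.00) and JUN (2.59) had depth-matched ratios of at least 2 between nuclei with at least 5 and with 0 HSP70.2 UMIs. HSPA1L overlaps HSP70.2 in the annotation, so its value may rest on shared reads. None of 15 J-domain cochaperones, 7 chaperonins, 19 cochaperones, 11 endoplasmic reticulum (ER) chaperones and 2 HSP90 genes reached 2 (HSP90AA1 had 1.53 and BAG3 1.38). As only 0.512% of all genes did, this does not set these lists apart from other genes. In WT ductal-like nuclei DNAJB1 had 13, 6.05 and 7.65 CPM at 0, 1 and 2 to 4 HSP70.2 UMIs, from 85, 10 and 3 UMIs. Over the level at the same depth, the last of these was 0.776 [0.160, 2.27]. This class had the lowest WT level of HSP70.2 per nucleus among the classes of at least 50 nuclei. The share of free RNA in that level was not measured, so these groups cannot decide whether DNAJB1 rises. In WT endothelial-like nuclei DNAJB1 had 17.8, 26.0, 50.0 and 85.9 CPM from 8, 6, 13 and 14 UMIs.

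Co-detection compares the number of nuclei holding a UMI of both genes with the number that depth alone gives, within 20 bins of depth, for genes found in at least 50 nuclei of the class and library. In WT acinar-like nuclei 4 of 28 pairs had a ratio of at least 1.5, and 3 of the 4 involved HSPA6. HSPA6 and DNAJB1 were found together in 42 nuclei against 19.9 (2.11 [1.52, 2.86]). HSPA6 with HSPH1 had 2.21 [1.01, 4.19] and HSPA6 with HSPB8 3.31 [0.682, 9.66]. HSPH1 with HSPD1 had 1.55 [1.17, 2.01]. A ratio of at least 1.5 was reached by 10.8% of genes with HSPA6, 0.836% with DNAJB1, 6.63% with HSPH1, 0.968% with HSPD1 and 15.5% with HSPB8. HSPA8 and DNAJB1 were found together in 359 nuclei against 268 (1.34 [1.20, 1.48]). HSP70.2 had 1.11 [1.04, 1.19] with DNAJB1, 1.08 [1.02, 1.14] with HSPA8 and 1.00 with HSP90AB1. No gene reached 1.5 with HSP70.2 (0.0%), since it was present in most nuclei. In 1 random draw of 500 UMIs per nucleus, its ratios were 1.37 [1.12, 1.66] with HSPA8 and 1.22 [0.904, 1.61] with HSP90AB1, and the interval with DNAJB1 ran from 1.18 to 1.87.

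**Figure D5:**
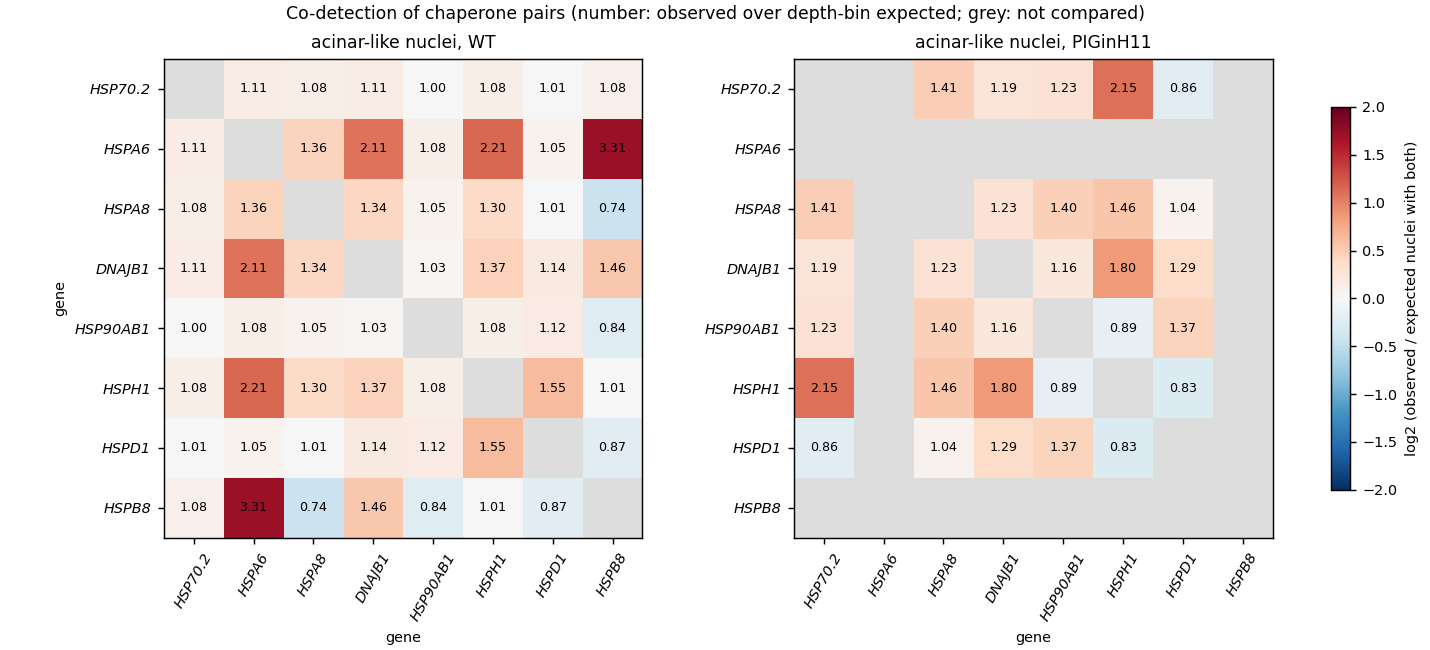
Observed over expected number of acinar-like nuclei with both genes of a pair in WT and PIGinH11; numbers are the ratios, color is their log2, and grey pairs were not compared. In WT the pairs of HSPA6 with DNAJB1 and with HSPH1 stand at 2.11 and 2.21, and the pairs of HSP90AB1 lie between 0.843 and 1.12.

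By nearness to HSP70.2 in co-detection in WT acinar-like nuclei, among named genes found in at least 100 nuclei, HSPA1L came first (1.16), and ATF3, DUSP1, SRF and EGR1 (1.13 [1.08, 1.19]) were among the first 10 genes, with RPS6KA2, STC2, UNC5D, MRPL50 and MTFMT (1.12). Of these 10, only ATF3, STC2, DUSP1 and EGR1 had intervals above 1. DNAJB1 ranked 23 and HSPA8 111 of 9576 genes. In PIGinH11, where few nuclei held HSP70.2, the first 10 were PTCHD4 (3.70), BCL2L1, PAFAH1B3, SLC24A1, ANXA6, PARP3, PPP1R3B, PSD, ESYT3 and ADGRF5 (2.76), each on 5 to 13 shared nuclei. Of 15 PIGinH11 pairs 2 reached 1.5, HSP70.2 with HSPH1 (2.15 [0.788, 4.67]) and DNAJB1 with HSPH1 (1.80 [0.660, 3.92]), beside 10.1% of genes with HSP70.2, 8.43% with DNAJB1 and 13.7% with HSPH1. No WT ductal-like pair of 21 did, and HSP70.2 with DNAJB1 had 0.651 there. Nuclei with UMIs of at least 4 members numbered 256 (3.03%) in WT acinar-like nuclei against 181 by depth, a ratio of 1.42, and none held more than 7. For at least 2 and at least 3 members the WT ratios were 0.991 and 1.06. In PIGinH11 acinar-like nuclei they were 1.11 and 1.82, the latter on 26 nuclei, and 2 nuclei held 4 members.

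The wider chaperone lists held 2 to 20 measured genes each in acinar-like nuclei. Of all genes in the class, 2.96% were at least 2-fold lower. In a list of at most 20 genes, 1 such gene already gives a higher share, so 1 gene does not set a list apart. There 1 of 7 other HSP70 genes (HSPA1L, log2 ratio -2.93), 0 of 2 HSP90 genes, 0 of 17 J-domain cochaperones, 1 of 3 small heat-shock proteins (HSPB1, 54.3 and 15.6 CPM, -1.80), 2 of 8 chaperonins, 1 of 20 cochaperones (BAG3, 106 and 23.5 CPM, -2.18), 0 of 6 heat-shock factors and regulators and 0 of 11 ER chaperones were called. BAG3 links HSP70 to small heat-shock proteins and autophagy. The medians of these lists lay between -0.52 and 0.11, beside 0.29 for all genes. Immediate-early genes, which encode transcription factors and other early responders to a stimulus, were lower for 8 of 19 and higher for 3 (median log2 ratio -0.78), beside 2.96% and 21.6% of all genes, with FOS at 40.7 and 2.83 CPM (-3.85), EGR1 at 150 and 16.6 CPM (-3.17), GADD45B (-2.40), JUN (-1.39) and ATF3 (-1.35) lower.

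In ductal-like nuclei, where 3.66% of all genes were at least 2-fold lower, 2 of 3 small heat-shock proteins were, CRYAB (-1.95) and HSPB1 (-1.09). So were 1 of 8 chaperonins, HSPE1 (-1.93), the cochaperonin of HSPD1, and 1 of 16 J-domain cochaperones, DNAJA1 (-1.03). The same held for 0 of 5 other HSP70 genes, 0 of 2 HSP90 genes, 0 of 18 cochaperones, 0 of 5 factors and regulators and 0 of 11 ER chaperones. Free RNA was not subtracted for these lists. Immediate-early genes were lower there for 0 of 12 and higher for 3, where 17.1% of all genes in the class were at least 2-fold higher. One of the 3 was JUN, at 20.9 CPM in WT and 51.9 CPM in PIGinH11 (1.31 [1.00, 1.62]). JUN had opposite directions in ductal-like and acinar-like nuclei of the same libraries. This difference between classes was not tested, as each library is 1 sample. In endothelial-like nuclei 0 of 12 immediate-early genes were lower and 2 higher, beside 4.38% and 8.6% of all genes, and in stellate-like nuclei 5 of 11 were lower and 1 higher, beside 5.64% and 8.1%.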

How the data were processed

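The deposited matrices hold raw UMI counts per gene and barcode that the authors made with Cell Ranger (3.1.0 in the submitters' processing notes, 5.0.0 in the file header) against Sscrofa11.1. Nuclei with 270 to 3700 genes, under 13000 UMIs (the methods print 1300) and under 10% mitochondrial UMIs were kept, and the barcodes with the highest Scrublet scores (scanpy 1.11.5), 0.8% for each 1000 barcodes, were removed. Clusters came from 2000 variable genes without the members, heat-shock, immediate-early, mitochondrial and ribosomal genes, 30 components, Harmony and Louvain (resolution 1, igraph 0.11.9), and were named from marker genes. UMIs were summed by class and library. Called was at least 2-fold among genes with at least 20 UMIs, and a gene at 0 was set to a floor of 3 counts over the class. Intervals are exact Poisson, Clopper-Pearson and conditional binomial. The pathway lists are the HSP70 and HSP90 families, J-domain cochaperones, small heat-shock proteins, chaperonins, cochaperones, heat-shock factors, ER chaperones and immediate-early genes. The members and lists were chosen with earlier results of these data known. Named besides the members were the 8 list genes in acinar-like and 5 in ductal-like nuclei with the largest absolute log2 ratio and at least 100 UMIs, the 5 genes most like HSP70.2 over classes, and the 10 most co-detected with it in each library, and the genes of at least 2-fold in the HSP70.2 count comparison, and HSP90AA1, where outside that rule, were chosen after their values were seen. Scripts were tested on simulated counts.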

Additional observations from a re-analysis of the deposited data

How the results depend on the processing

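With 1 library per group, no replicate could be left out. No paired analysis was possible because each group has 1 library. With a UMI limit of 1300, members at least 2-fold lower numbered 2 of 6 measured in acinar-like (HSPA8 had -0.91, HSPA6 had too few UMIs), 2 of 4 in ductal-like and 1 of 1 in endothelial-like nuclei, and the log2 ratio of HSP70.2 in acinar-like nuclei was -5.24. That ratio was -6.50 with median-of-ratios scaling. With each nucleus thinned to 500 UMIs, 1 of 1 measured member was lower in endothelial-like nuclei, and 1 of 10 pairs in WT acinar-like nuclei had a co-detection ratio of at least 1.5. That pair was HSPA8 with DNAJB1 (1.65 [0.793, 3.04]), and none of the 4 pairs at or above 1.5 with all UMIs could be compared after thinning. Subtraction of the lowest level of the other classes left 1 of 5 measured members lower in ductal-like nuclei, and HSP70.2 could not be compared there; in acinar-like nuclei HSP90AB1 then had 0.81 and HSPD1 0.69. Acinar-like nuclei without cluster 2, backgrounds by gene span, ratios to enzyme UMIs and the comparison of all genes by HSP70.2 count were chosen after seeing the data. Counts under 10 UMIs in the small classes, and thinned counts from 1 random draw, limit what can be said of single members there.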
